A study of Mus musculus with 4 samples.

Results

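The gene set described here holds 35 genes of glucose breakdown and of the response to low oxygen: glycolytic enzymes, the glucose and lactate transporters, the oxygen sensor with its regulators, and known targets of hypoxia-inducible factor (HIF). They were chosen by symbol from a fixed list, with earlier results of these data known, and no rule on measured values was applied. All 35 were found among the 55401 rows of the deposited gene table. Macrophages were raised from the bone marrow of C57BL/6 mice aged 8 weeks, and their poly(A) RNA was sequenced in 4 libraries. Controls 1 and 3 were Mettl3fl/fl, and knockouts 1 and 3 were LysM-cre, Mettl3fl/fl. Every group was grown with M-CSF, a macrophage growth factor, and then co-cultured with MC38, a mouse colon carcinoma line, for 24 h. Mettl3 encodes the catalytic subunit of the enzyme that writes N6-methyladenosine on RNA, and LysM-cre removes floxed sequence in myeloid cells. The labels give no deletion check, do not say whether libraries of equal number share a litter or a day, and do not say whether libraries of 1 genotype came from separate mice, so the p-values below measure only the spread between these libraries.

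Glycolysis turns glucose into pyruvate in a preparatory stage, which spends ATP, and a payoff stage, which returns it, and lactate dehydrogenase then makes lactate. When oxygen is short, prolyl hydroxylases of the EGLN family work less, HIF-1α is no longer marked for destruction, and HIF binds promoters and enhancers at a short core sequence and raises transcription of most glycolytic enzymes and of genes for blood vessel growth, mitophagy and collagen hydroxylation. Macrophages are known to lean on glycolysis and HIF-1α when activated and in tumours, where lactate and low oxygen are common.

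The HIF core was written out as ACGTG or GCGTG and searched on both strands, with overlapping matches counted as 1 site. RefSeq promoter windows (build GRCm38.p6), from 250 bases before to 50 after the gene start, matched 32 of the 35 genes in 46 windows. Of these windows, 80.4% held at least 1 core, against 43.8% of all 32851 promoter windows of the same length, and 58.7% held at least 2, against 17.3%. The E-box CACGTG, which contains a core, was in 10.9% of the windows and in 7.15% of all windows. The median number of CG dinucleotides was 20 in the windows of the set and 7 in all windows, and its part in the difference was not tested. Promoters were printed only for genes with at least 2 cores in a window. Egln3 and Mxi1, with at most 1 core in any window, were thus left out, although they show the separation of libraries described further on. The promoters of Adm, Ankrd37 and Bnip3 are printed because these genes show that separation as well. That of Ldha is printed because it holds the most cores of the set, 5 in its whole window. Each printed promoter is the stretch before the RefSeq start that no GENCODE M21 exon of the gene covers, in gene direction, with the cores in capitals. Adm lies at chr7:110627407-110627656 on the plus strand, Ankrd37 at chr8:45999868-46000100 on the minus strand, Bnip3 at chr7:138909520-138909756 on the minus strand and Ldha at chr7:46845554-46845803 on the plus strand.
Adm: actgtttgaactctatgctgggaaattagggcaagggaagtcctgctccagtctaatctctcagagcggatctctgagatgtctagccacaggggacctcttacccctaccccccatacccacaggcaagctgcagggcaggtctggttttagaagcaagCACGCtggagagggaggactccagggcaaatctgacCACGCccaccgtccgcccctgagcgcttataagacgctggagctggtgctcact
Ankrd37: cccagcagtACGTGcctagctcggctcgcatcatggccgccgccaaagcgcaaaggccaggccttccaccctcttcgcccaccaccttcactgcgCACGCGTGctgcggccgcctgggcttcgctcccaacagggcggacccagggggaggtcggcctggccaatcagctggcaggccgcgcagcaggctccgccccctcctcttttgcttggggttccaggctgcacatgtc
Bnip3: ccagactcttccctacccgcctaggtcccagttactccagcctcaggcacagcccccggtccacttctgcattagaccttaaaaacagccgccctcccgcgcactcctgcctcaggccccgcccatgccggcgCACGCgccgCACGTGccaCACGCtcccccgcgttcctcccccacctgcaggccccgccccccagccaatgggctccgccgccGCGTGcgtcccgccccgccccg
Ldha: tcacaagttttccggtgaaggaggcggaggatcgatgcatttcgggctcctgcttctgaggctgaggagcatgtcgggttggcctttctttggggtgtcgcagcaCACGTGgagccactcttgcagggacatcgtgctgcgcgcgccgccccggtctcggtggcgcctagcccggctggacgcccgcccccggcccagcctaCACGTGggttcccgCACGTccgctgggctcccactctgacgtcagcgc
The printed stretches hold 2 cores for Adm, 2 for Ankrd37, 4 for Bnip3 and 3 for Ldha. A match is a string of letters and not a measured binding site.

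The controls had total estimated counts of 55100415 (number 1) and 61075754 (number 3), and the knockouts of 62563556 (number 1) and 79209870 (number 3). Levels are given as CPM, counts scaled to library totals corrected by TMM, with number 1 before number 3 in each genotype. Mettl3 itself stood at 18.3 and 23.2 CPM (controls 1 and 3) against 13.8 and 19.6 CPM (knockouts 1 and 3), and these groups overlapped (log2 fold change −0.31 ± 0.27 SE, edgeR unadjusted p = 0.306). Counts over the whole gene do not check whether the floxed part was removed. The 10 macrophage markers summed to between 19089 and 32569 FPKM (fragments scaled by the authors for gene length and library size), most of it Lyz2. Of the 15 epithelial markers, 8 had at most 3 counts in every library, with Epcam, Krt8 and Krt18 at 0, and the list summed to 0.404 to 0.811 FPKM. Whether MC38 cells express these markers was not measured here. The Y-linked gene Ddx3y stood at 72.1 and 89.0 CPM in control 1 and knockout 1 and at 0.307 and 0.139 CPM in control 3 and knockout 3, while Xist, made from the inactive X chromosome, stood at 0.589 and 0.624 CPM in the former and at 1350.0 and 1161 CPM in the latter. Library number and this pattern of the sex chromosomes therefore cannot be told apart.

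**Figure D1:**
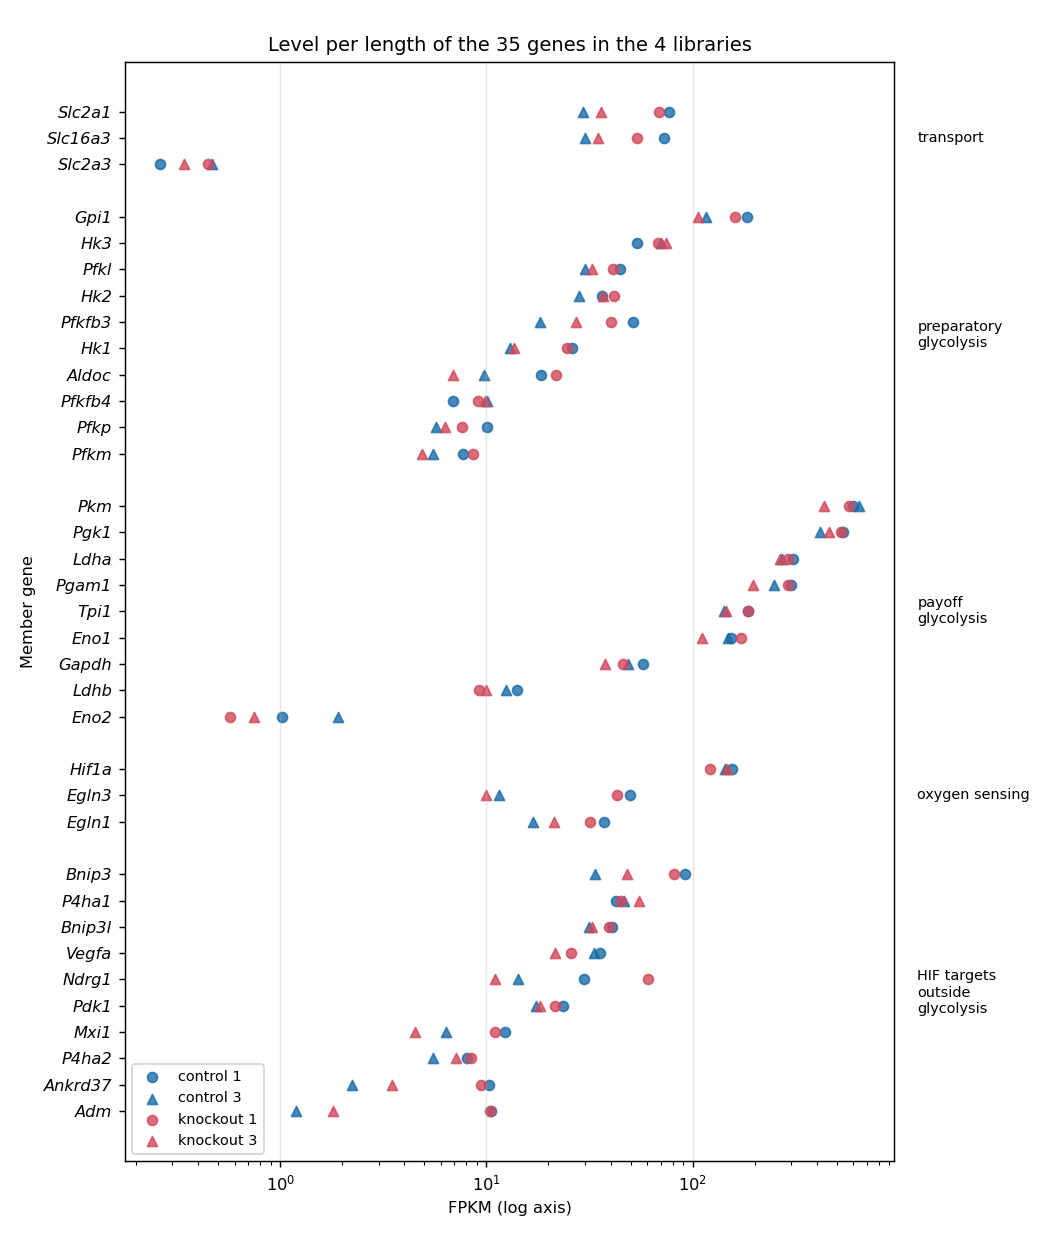
Level per length (FPKM, log axis) of each of the 35 genes in the 4 libraries, grouped by role, with circles for libraries numbered 1, triangles for those numbered 3, blue for controls and red for knockouts. The triangles lie to the left of the circles for most genes, and Pkm, Pgk1 and Ldha are the 3 highest.

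Per length, the set was led by the payoff enzymes. Pkm, which encodes the pyruvate kinase that makes pyruvate and ATP, had a mean of 563 FPKM over the 4 libraries. Pgk1, phosphoglycerate kinase, had a mean of 484 FPKM, and Ldha, the main lactate dehydrogenase subunit, a mean of 284 FPKM. The lowest level was that of Slc2a3, the glucose transporter GLUT3, with a mean of 0.378 FPKM. GLUT1, encoded by Slc2a1, had 52.7 FPKM and made up between 98.4% and 99.7% of the summed FPKM of both transporters. The 35 genes together held 1.04% (control 1) and 0.997% (knockout 1) of all FPKM, against 0.845% (control 3) and 0.787% (knockout 3). Both libraries numbered 1 were thus above both numbered 3, and each pair of equal number was close.

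The first comparison asks how this set differs between the knockout and control genotypes, where loss of Mettl3 itself was not checked. The angiogenic factor Vegfa, the enolase Eno2 and the lactate dehydrogenase subunit Ldhb stood lower in both knockouts than in both controls, and the hexokinase Hk2 slightly higher, while most of the set overlapped between genotypes. None of the 35 genes passed the test between genotypes (edgeR quasi-likelihood test, adjusted p under 0.05), as none of all 17260 genes tested did (0%). At an unadjusted p under 0.05, 2 genes of the set, Eno2 and Vegfa, stood beside 391 of all genes (2.27%). DESeq2 called none of the set and 74 of 17786 genes (0.416%). With the library number as a block, edgeR again called 0 genes (0%), 3 of the set had an unadjusted p under 0.05 against 5.38% of all genes, and DESeq2 called none of the set against 1.10% of 15966 genes. The fold change was above 0 for 15 of the 35 and below 0 for 20, with a median log2 fold change of −0.03 in the set and −0.001 over all genes. This median followed single libraries: it was 0.27 without control 1, −0.31 without control 3, −0.37 without knockout 1 and 0.14 without knockout 3, where a genotype left with 1 library takes its spread from the other genotype. Both knockouts lay below both controls in 5 genes, Gapdh, Eno2, Pkm, Ldhb and Vegfa, against 13.4% of all genes. Both knockouts lay above both controls in 1 gene, Hk2, against 13.1% of all genes. These shares, 14.3% and 2.86% of the set, stand near and below the background.

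Transport was covered by 3 genes, none with groups apart. Slc2a1, which brings glucose in, had a log2 fold change of −0.02 ± 0.57 (SE), with −0.17 within number 1 and 0.32 within number 3. Slc16a3, the lactate exporter MCT4, had −0.20 ± 0.49, with −0.44 and 0.25. Slc2a3 had 0.13 ± 0.44, with 0.75 and −0.41. The direction of all 3 thus depended on the library number.

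Of the 10 genes of the preparatory stage, 5 lay above 0 and 5 below. Hk2, the inducible hexokinase that traps glucose as glucose 6-phosphate, stood at 245 and 184 CPM (controls) against 277 and 246 CPM (knockouts). Knockout 3 exceeded control 1 by less than 1 CPM, so the groups were apart only narrowly (log2 fold change 0.29 ± 0.21, edgeR unadjusted p = 0.231). Hk3, the hexokinase typical of myeloid cells, stood at 223 and 284 CPM (controls) against 278 and 307 CPM (knockouts). Control 3 lay above knockout 1, so the groups overlapped (0.21 ± 0.19). Gpi1, the isomerase that follows hexokinase, stood at 1330.1 and 825 CPM (controls) against 1157 and 764 CPM (knockouts), with a far wider gap between numbers than between genotypes (−0.17 ± 0.34). Hk1, the constitutive hexokinase, had −0.03 ± 0.46. The phosphofructokinase subunits, which set the committed step, had −0.01 ± 0.27 (Pfkl), 0.04 ± 0.36 (Pfkm) and −0.18 ± 0.32 (Pfkp). Pfkfb3 and Pfkfb4, which make the activator of that step, had −0.04 ± 0.55 and 0.16 ± 0.23, and the aldolase gene Aldoc had 0.03 ± 0.63.

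In the payoff stage, listed here with Tpi1, 7 of 9 genes lay below 0, against 50.2% of all genes. Both knockouts lay below both controls in 4 of the 9, against 13.4% of all genes, a difference that was not tested. Of these 4, Gapdh overlapped once the counts of near-identical rows were added, as given below. Eno2, the neuronal enolase (ENSMUSG00000004267, chr6:124760053-124769621), stood at 5.50 and 9.89 CPM (controls) against 3.05 and 4.02 CPM (knockouts). The groups did not overlap, though knockout 3 and control 1 were near each other, and the levels were low (log2 fold change −1.12 ± 0.42, edgeR unadjusted p = 0.0477, adjusted p = 1.00). Ldhb, the subunit that favours lactate use, stood at 24.8 and 21.4 CPM (controls) against 16.0 and 17.6 CPM (knockouts). All knockout values lay below all control values (−0.46 ± 0.20, edgeR unadjusted p = 0.0741). Its share of the summed FPKM of Ldha and Ldhb was 4.38% and 4.37% in the controls and 3.07% and 3.62% in the knockouts.
Pkm stood at 3380.5 and 3532 CPM (controls) against 3176 and 2431 CPM (knockouts). The gap rested mostly on knockout 3 (−0.30 ± 0.23), with −0.09 within number 1 and −0.54 within number 3. Pgk1 stood at 1356 and 1026 CPM (controls) against 1308 and 1147 CPM (knockouts), with no separation of genotypes (0.04 ± 0.23). Ldha stood at 1139 and 989 CPM (controls) against 1065 and 988 CPM (knockouts), again without separation (−0.05 ± 0.19). Pgam1, the mutase between Pgk1 and enolase, stood at 669 and 539 CPM (controls) against 639.8 and 437 CPM (knockouts), and these overlapped (−0.17 ± 0.26). Tpi1, the triose phosphate isomerase, was counted in this list although its step comes before that of Gapdh, and had 0.02 ± 0.24. Eno1, the common enolase, had −0.09 ± 0.26.

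Gapdh, the dehydrogenase that opens the payoff stage and a common reference gene, needs its own account. Its row stood at 266 and 220.0 CPM (controls) against 212 and 175 CPM (knockouts), with both knockouts below both controls (−0.33 ± 0.19, edgeR unadjusted p = 0.154) and a difference of −0.33 within each number. However, 77 other rows of the table carry transcripts at least 95% identical to Gapdh over at least 300 bases, and these held between 736% and 933% of Gapdh's own counts. With those counts added, Gapdh stood at 2225 and 1933 CPM (controls) against 2190 and 1705 CPM (knockouts), the groups overlapped, and the log2 fold change was −0.09 ± 0.23. It is unknown how the authors assigned reads with several matches, so the Gapdh row is uncertain. Eno1 had 3 such rows, Eno1b among them, with 48.4% to 93.7% of its own counts. Adding them turned its difference within number 1 from 0.14 to −0.25 and gave −0.18 in place of −0.38 within number 3. The 1 copy of Pgam1 held 10.5% to 13.1% of that gene's counts and the copy of Bnip3l 7.21% to 8.43%. Over the set, 11 genes had copies and 24 had none, and apart from Gapdh, Eno1, Pgam1 and Bnip3l the copies held at most 3.26%.

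**Figure D2:**
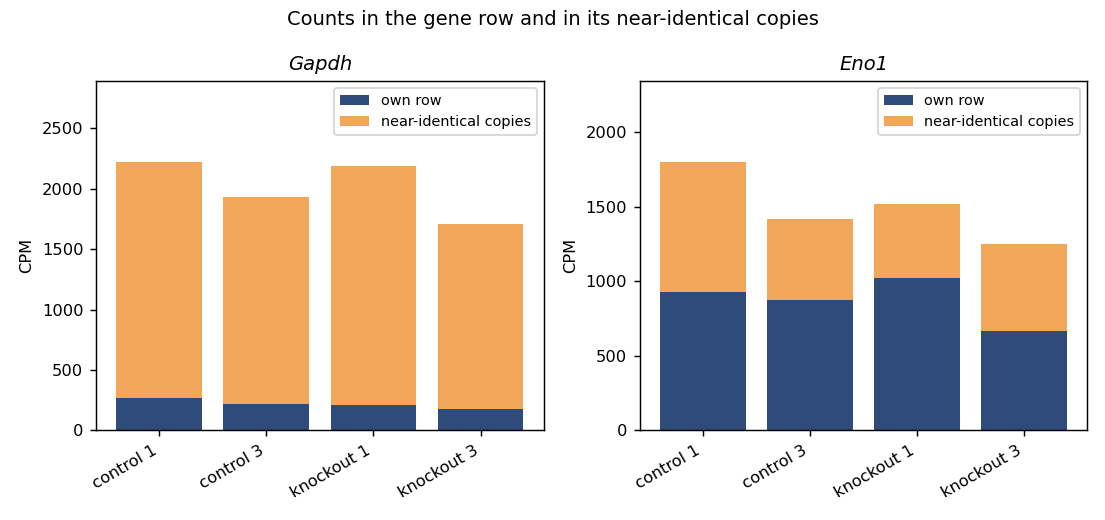
CPM of the Gapdh row (left) and the Eno1 row (right) in each library in blue, with the summed CPM of their near-identical copies stacked in orange. The Gapdh row itself is between 9.68% and 11.96% of its stack, and the Eno1 row between 51.6% and 67.4%.

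Among the oxygen sensing genes, Hif1a, which encodes the oxygen-regulated subunit of HIF-1, stood at 1027 and 931 CPM (controls) against 792 and 968 CPM (knockouts). Only knockout 1 was low, so the genotypes overlapped (−0.15 ± 0.20), with −0.38 within number 1 and 0.06 within number 3. HIF-1α is set mainly at the protein level, which RNA counts do not measure. The hydroxylase genes Egln1 and Egln3, which mark HIF-1α for destruction, had −0.03 ± 0.45 and −0.22 ± 0.96, and the large errors come with the large gaps between numbers given below.

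Of the 10 HIF targets outside glycolysis, 7 lay above 0 and 3 below. Vegfa, the growth factor for blood vessels (ENSMUSG00000023951, chr17:46016993-46032369), stood at 172 and 157 CPM (controls) against 122 and 103 CPM (knockouts). Both knockouts were below both controls, with −0.49 within number 1 and −0.61 within number 3. The log2 fold change was −0.54 ± 0.17, a fold of 1.46, and did not pass the adjusted test (edgeR unadjusted p = 0.0257, adjusted p = 1.00). Mxi1, an antagonist of MYC, stood at 94.5 and 47.9 CPM (controls) against 83.3 and 34.4 CPM (knockouts), so it separated by number and not by genotype (−0.27 ± 0.54). P4ha1, a collagen prolyl hydroxylase subunit, stood at 197 and 209 CPM (controls) against 206 and 253 CPM (knockouts), with overlap (0.18 ± 0.17). P4ha2 had 0.20 ± 0.25, and Pdk1, a pyruvate dehydrogenase kinase, −0.05 ± 0.22. The mitophagy receptors Bnip3 and Bnip3l had 0.05 ± 0.56 and 0.005 ± 0.21. Adm, the vasodilator peptide adrenomedullin, had 0.06 ± 1.26, and Ankrd37, an ankyrin repeat gene, 0.03 ± 0.87. Ndrg1, a stress-induced gene, had 0.71 ± 0.86.

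**Figure D3:**
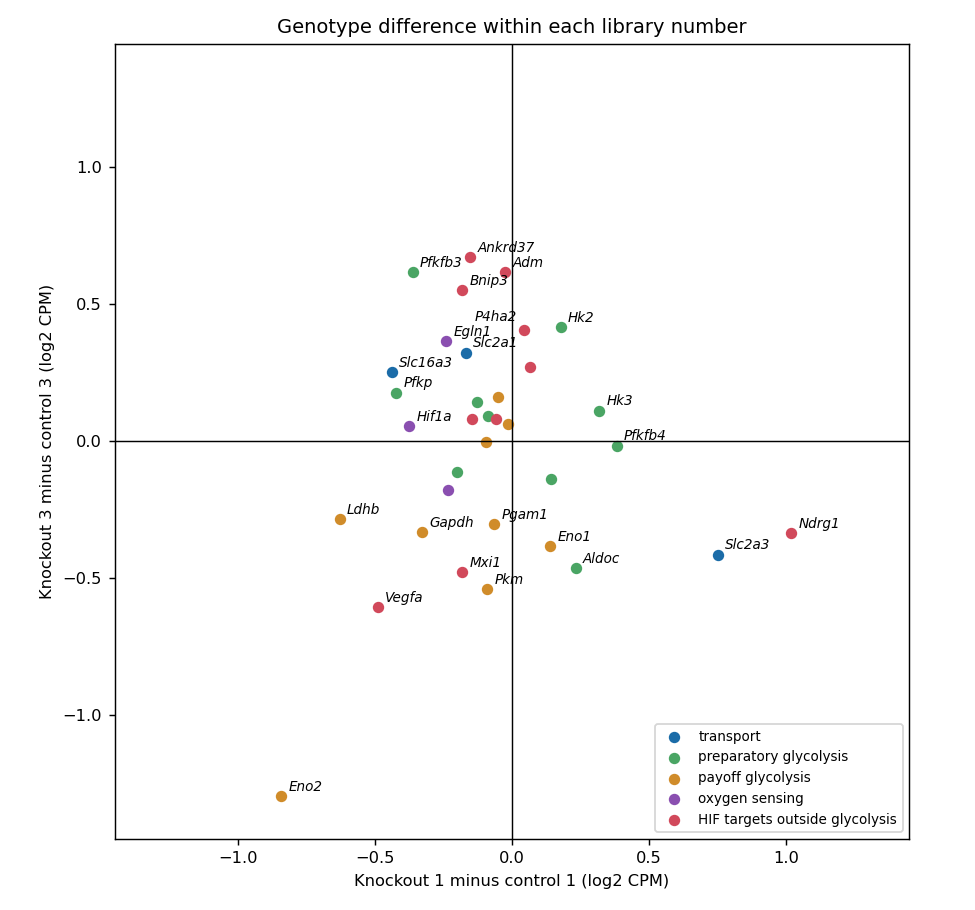
Difference of knockout and control (log2 CPM with a prior count of 2) within library number 1 on the x axis and within number 3 on the y axis, with 1 point per gene, coloured by role. Eno2, Vegfa, Ldhb and Gapdh lie low on both axes, while Ndrg1 and Slc2a3 lie at the right and below 0.

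Within equal library number, 21 of the 35 genes had genotype differences of opposite sign (60% of the set), against 47.0% of all genes. Of these 21, 15 were below 0 within number 1 and above 0 within number 3 (42.9% of the set), against 22.1% of all genes. The median within number 1 was −0.10, with 25 genes below 0, against 8508 of all 17260 genes. Within number 3 the median was 0.06, with 16 below 0, against 8998 of all 17260 genes. Each such difference compares 1 library with 1 library and has no replicate check, and an interaction of genotype and number leaves no residual degrees of freedom.

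The second comparison, which was planned, sets the libraries numbered 3 against those numbered 1, with genotype as a covariate. The gap between numbers was larger than that between genotypes in 29 of the 35 genes, against 64.2% of all genes. Adm and Egln3, both known HIF targets, were lower in the libraries numbered 3, and most of the other genes had negative differences that did not pass the test. Both libraries numbered 3 lay below both numbered 1 in 24 of the 35 genes (68.6%), against 25.2% of all genes, and above both in 3 (8.57%), against 26.2%. The median log2 difference was −0.41, with 29 genes below 0, against −0.003 over all genes. In the controls alone the median was −0.46 and in the knockouts alone −0.38, each with 29 genes below 0.

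Adm (ENSMUSG00000030790, chr7:110627661-110629820) stood at 19.0 and 18.7 CPM in control 1 and knockout 1 and at 2.13 and 3.28 CPM in control 3 and knockout 3. It was 7.11-fold lower in number 3 (log2 difference −2.83 ± 0.26, edgeR adjusted p = 0.0474). Egln3, a prolyl hydroxylase gene that HIF itself induces (ENSMUSG00000035105, chr12:54178981-54203860), stood at 149 and 127 CPM in control 1 and knockout 1 and at 33.6 and 29.8 CPM in control 3 and knockout 3. It was 4.34-fold lower (−2.12 ± 0.12, edgeR adjusted p = 0.0319). These 2 were the genes of the set that passed the edgeR test, 5.71% of the set, against 0.301% of all genes lower and 0.406% higher. At an unadjusted p under 0.05 there were 19 of the 35, against 17.6% of all genes. DESeq2 called 13 of the 35, all lower, against 4.05% of 16876 genes lower and 3.24% higher. The edgeR calls rested on few libraries and did not all hold when 1 library was left out. Those fits had only 1 library in a number and no genotype covariate. In them the log2 difference ran from −3.14 to −2.52 for Adm and from −2.22 to −1.99 for Egln3. With all 4 libraries and no genotype covariate, the test called 177 of all genes and 3 of the set, with Hk1 added (edgeR adjusted p = 0.0468). With the covariate kept but no filter on low counts, the test called none, with an edgeR adjusted p of 0.109 for Egln3 and 0.135 for Adm. With RLE scaling Adm stood at an edgeR adjusted p of 0.0538.

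**Figure D4:**
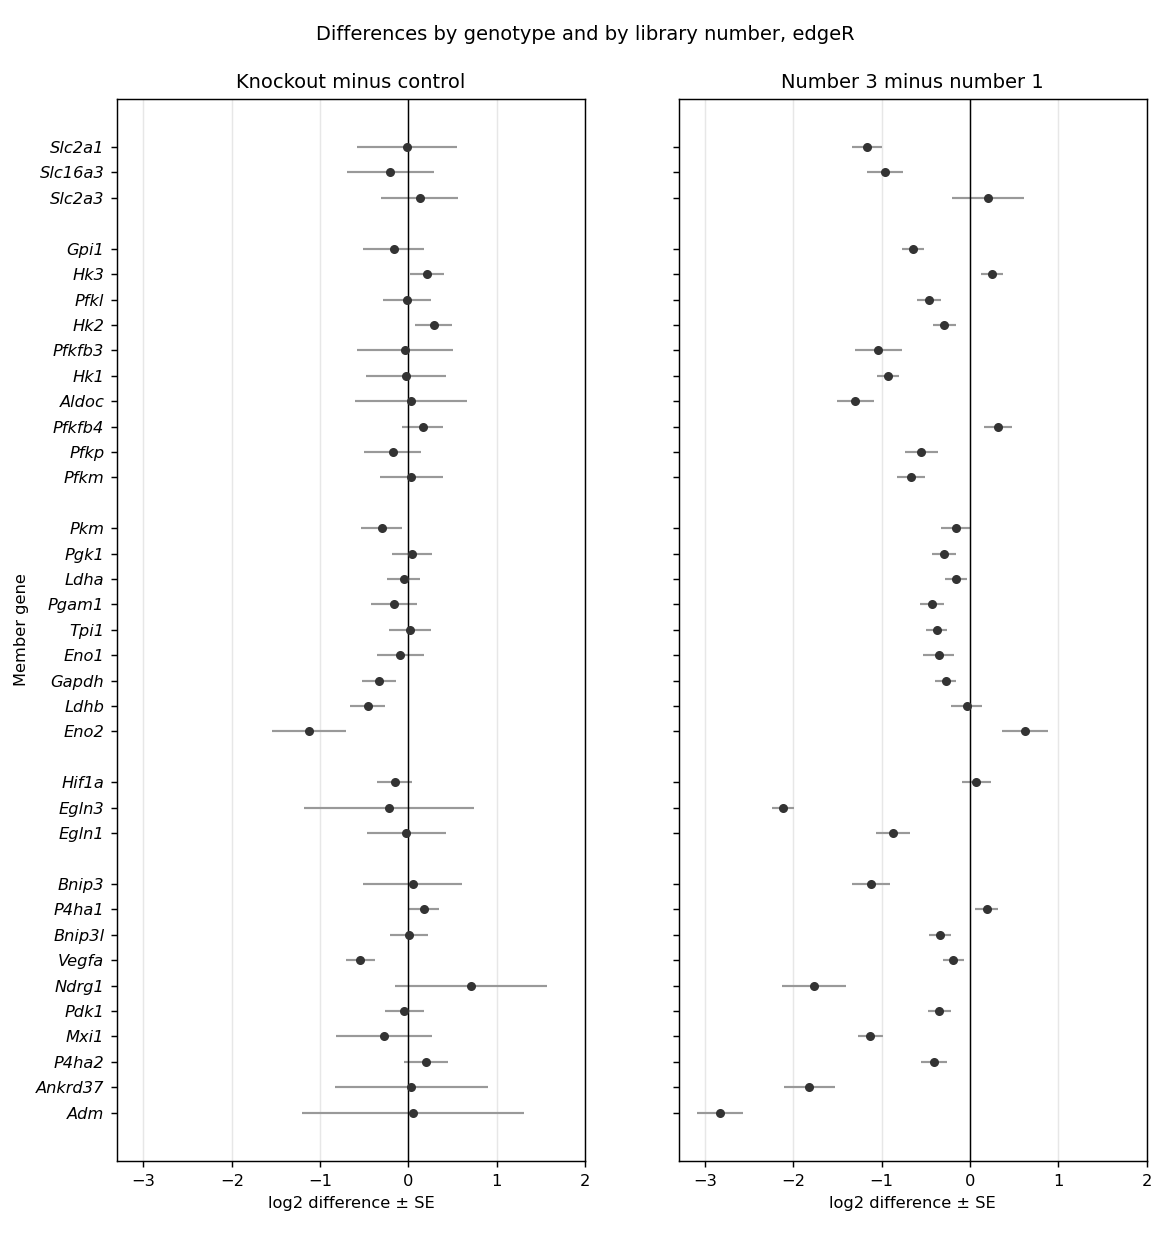
Log2 difference with its standard error (edgeR) for each of the 35 genes, knockout minus control at left and number 3 minus number 1 at right, on the same scale. At left the bars cross or lie near 0 for most genes, and at right 29 points lie below 0, with Adm at −2.83 and Egln3 at −2.12.

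The HIF targets outside glycolysis had a median number difference of −0.76, with 9 of 10 below 0. Ankrd37, shown with its promoter above, stood at 17.9 and 16.1 CPM in control 1 and knockout 1 and at 3.79 and 6.06 CPM in control 3 and knockout 3. That is 3.53-fold lower in number 3 (−1.82 ± 0.28, edgeR adjusted p = 0.0887). Ndrg1 stood at 219 and 444 CPM in control 1 and knockout 1 and at 103 and 81.8 CPM in control 3 and knockout 3. The numbers did not overlap, and knockout 1 was by far the highest library (−1.76 ± 0.37). Bnip3, also shown with its promoter, stood at 233 and 205 CPM in number 1 and at 83.1 and 122 CPM in number 3, control first (−1.12 ± 0.22). These 3, with the following genes given by library, were chosen after their values were seen. Mxi1 differed by −1.13 ± 0.14, P4ha2 by −0.41 ± 0.15, Pdk1 by −0.35 ± 0.13, Bnip3l by −0.34 ± 0.12 and Vegfa by −0.19 ± 0.12. P4ha1 went the other way, by 0.19 ± 0.13.

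The transporters and the EGLN genes followed the same order. Slc2a1 stood at 301 and 268 CPM in control 1 and knockout 1 and at 113 and 142 CPM in control 3 and knockout 3, a 2.24-fold gap (−1.16 ± 0.17, edgeR adjusted p = 0.0808). Slc16a3 stood at 432 and 319 CPM in number 1 and at 174 and 208 CPM in number 3 (−0.96 ± 0.21). Both transporters were thus apart by number, while Slc2a3, at 2.13 and 3.61 CPM against 3.71 and 2.78 CPM, overlapped. Egln1 stood at 149.9 and 127 CPM in number 1 and at 66.4 and 85.5 CPM in number 3 (−0.87 ± 0.19). Hif1a itself did not follow them (0.07 ± 0.16), as knockout 1 was its lowest library.

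Within glycolysis the median number difference was −0.60 over the 10 preparatory genes and −0.28 over the 9 payoff genes, with Tpi1 among the latter. The difference between these lists was not tested. Aldoc stood at 67.3 and 79.1 CPM in control 1 and knockout 1 and at 34.8 and 25.3 CPM in control 3 and knockout 3 (−1.30 ± 0.21). Pfkfb3 stood at 434 and 337 CPM in number 1 and at 151 and 231 CPM in number 3 (−1.04 ± 0.27). Hk1 stood at 248 and 233 CPM in number 1 and at 122 and 129.9 CPM in number 3 (−0.93 ± 0.13). In these 3 the numbers did not overlap. Libraries of equal number lay close for Hk1, while within number 3 the genotypes differed by −0.46 for Aldoc and 0.62 for Pfkfb3. Pfkm differed by −0.66 ± 0.16, Gpi1 by −0.64 ± 0.13, Pfkp by −0.55 ± 0.19, Pfkl by −0.47 ± 0.13 and Hk2 by −0.29 ± 0.13. Hk3 and Pfkfb4 stood higher in number 3, by 0.25 ± 0.13 and 0.32 ± 0.16.
In the payoff stage Pgam1 differed by −0.43 ± 0.13, Tpi1 by −0.38 ± 0.12, Eno1 by −0.35 ± 0.18, Pgk1 by −0.30 ± 0.14, Gapdh by −0.28 ± 0.12, Ldha by −0.16 ± 0.13, Pkm by −0.16 ± 0.17 and Ldhb by −0.04 ± 0.17. Eno2 was the exception, at 0.62 ± 0.26. The enzymes with the highest levels per length, Pkm, Pgk1 and Ldha, were thus among those with small gaps.

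The mix of isoenzymes also differed between library numbers. Of the summed FPKM of the 3 hexokinases, Hk3 held 46.3% and 50.6% in control 1 and knockout 1 and 63.1% and 59.7% in control 3 and knockout 3, while Hk1 held 22.2% and 18.3% against 11.7% and 10.9%. Pfkfb3 held 88.1% and 81.6% of the pair with Pfkfb4 in number 1 and 64.2% and 73.6% in number 3. Egln3 held 57.3% and 57.4% of the pair with Egln1 in number 1 and 40.6% and 32.0% in number 3. The phosphofructokinase mix was steadier, with Pfkl at 71.4% to 74.3% in every library. With 2 libraries against 2, the exact permutation test cannot go below p = 0.333, so these shares are descriptions.

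**Figure D5:**
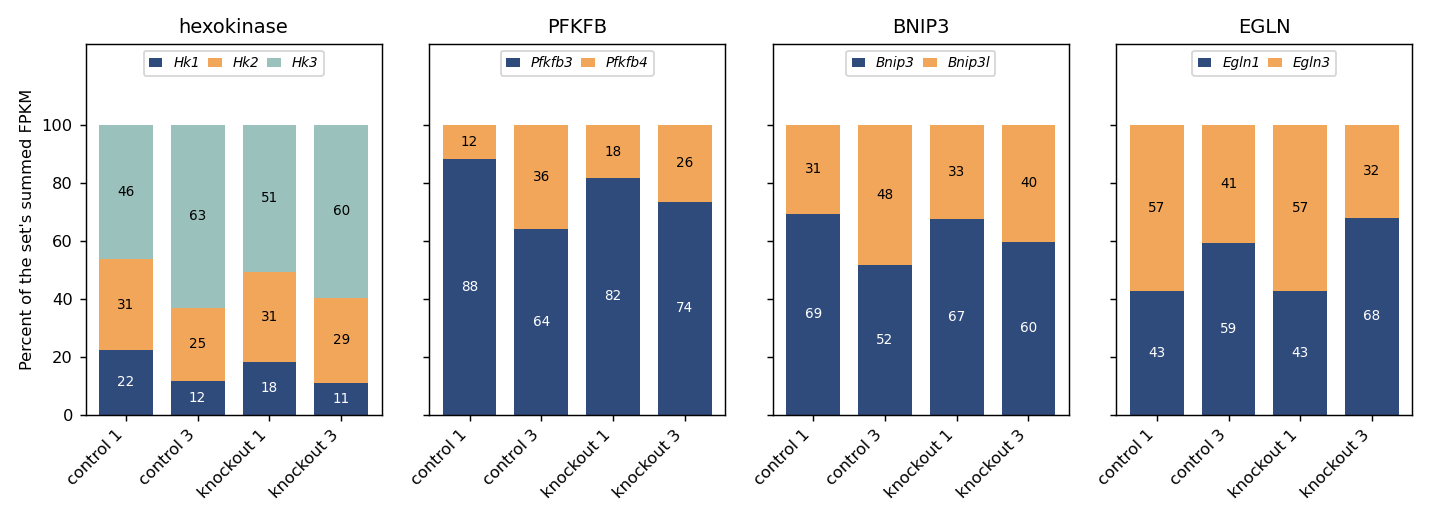
Share of the summed FPKM (percent) held by each member of 4 sets of isoenzymes or paralogues, with 1 stacked bar per library from 0 to 100. Hk3 is larger and Hk1 smaller in both libraries numbered 3, and Pfkfb3, Bnip3 and Egln3 are smaller there.

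Other features of the libraries moved with the number. The 7 cell cycle genes all lay below 0 in number 3, with a median log2 difference of −1.42. The 10 fibroblast markers had a median of 0.81, with 7 above 0, and summed to 46.9 and 37.8 FPKM in number 1 and to 95.2 and 59.8 FPKM in number 3. Of the 4 neutrophil markers tested, 3 lay above 0 (median 2.03). Their list summed to 135 and 121 FPKM in number 1 and to 69.8 and 63.1 FPKM in number 3, most of it Mmp8 in number 1, at 117 and 96.1 FPKM against 46.7 and 29.8 FPKM. The 10 macrophage markers had a median of 0.07. In bulk RNA, fewer cells of a type and less RNA per cell cannot be told apart, and the part of these lists in the number difference was not tested. Between genotypes, 9 of the 10 fibroblast markers were below 0 (median −0.50), and the 4 erythroid genes tested were all below 0 (median −2.70), at summed levels of 0.221 to 9.90 FPKM. Their part in the values of Vegfa and Eno2 was not tested. Genes with at least 2 HIF cores in a promoter window had a median number difference of −0.43 (23 genes) and those with 0 or 1 core a median of −0.38 (9 genes). Egln3 has 1 core in its window.

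Related genes outside the set were read from fixed lists. None of the genes tested in these lists was called between genotypes by edgeR or by DESeq2 without the block, and 2, Pdk4 and Slc6a8, had an edgeR unadjusted p under 0.05. Of 17 other glycolysis genes, 8 lay above 0 and 9 below between genotypes, and the median was −0.07. Aldoa, the main aldolase, stood at 1381 and 1543 CPM (controls) against 1236 and 1164 CPM (knockouts), both knockouts below both controls (−0.29 ± 0.18). Adpgk, an ADP-dependent glucokinase, had 0.43 ± 0.19, Tigar, which lowers fructose 2,6-bisphosphate, 0.39 ± 0.24, Bpgm, the bisphosphoglycerate mutase, 0.34 ± 0.26 and Pgm1, a phosphoglucomutase, 0.31 ± 0.45. The 8 genes of the pentose phosphate pathway, which branches off glucose 6-phosphate, had a median of −0.007 between genotypes and 0.12 between numbers, with 4 above 0 and 4 below. Among them Pgls had −0.39 ± 0.21, H6pd 0.14 ± 0.27, Taldo1 −0.27 ± 0.38 and G6pdx, the entry enzyme, 0.04 ± 0.15 between genotypes.

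The 13 genes of pyruvate entry into mitochondria had a median genotype fold change of 0.06. Pdk4, a pyruvate dehydrogenase kinase, stood at 1.95 and 3.60 CPM (controls) against 0.719 and 0.543 CPM (knockouts), both knockouts below both controls at low levels (−2.13 ± 0.52, edgeR unadjusted p = 0.0112, adjusted p = 1.00). Pdp1 had −0.25 ± 0.28, Pdpr 0.22 ± 0.20, Dld 0.19 ± 0.17 and Pdha1 0.07 ± 0.14. The 14 genes of the HIF machinery (partner subunits, the von Hippel-Lindau complex and coactivators) had a median of 0.008 between genotypes and 0.11 between numbers. Epas1, which encodes HIF-2α, had −0.55 ± 0.25, Arnt2 −0.44 ± 0.92, Rbx1 −0.09 ± 0.19, Elob −0.13 ± 0.20 and Egln2 0.14 ± 0.16 between genotypes.

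The 31 other HIF targets tested had a median of −0.06 between genotypes, with 21 below 0, and of −0.26 between numbers. Both libraries numbered 3 lay below both numbered 1 in 20 of the 31 (64.5%), against 25.2% of all genes. They lay above both in 6 (19.4%), against 26.2%. The edgeR test called 3 lower, against 0.301% of all genes. Ero1l, an oxidase of the endoplasmic reticulum, stood at 629 and 593 CPM in control 1 and knockout 1 and at 131 and 158 CPM in control 3 and knockout 3 (−2.09 ± 0.15, edgeR adjusted p = 0.0374). Selenbp1 stood at 108 and 120.3 CPM against 17.4 and 25.8 CPM (−2.43 ± 0.17, edgeR adjusted p = 0.0346), and Ddit4, an inhibitor of mTORC1 signalling, at 49.5 and 34.8 CPM against 13.7 and 6.97 CPM (−2.09 ± 0.19, edgeR adjusted p = 0.0438). In these 3 both libraries numbered 3 lay below both numbered 1. Knockout minus control within numbers 1 and 3 (log2 CPM) was −0.08 and 0.27 for Ero1l and 0.15 and 0.57 for Selenbp1. For Ddit4 it was −0.51 and −0.97.
Between genotypes, Slc6a8, the creatine transporter, stood at 75.6 and 120.4 CPM (controls) against 32.1 and 58.9 CPM (knockouts), with both knockouts below both controls (−1.11 ± 0.39, edgeR unadjusted p = 0.0414). Cxcr4, a chemokine receptor, stood at 146 and 198 CPM (controls) against 77.2 and 124.7 CPM (knockouts), again without overlap (−0.77 ± 0.31, edgeR unadjusted p = 0.0582). DESeq2 with the library number as a block called both, with an adjusted p of 5.5e-05 for Slc6a8 and 0.0139 for Cxcr4, and without the block neither (DESeq2 adjusted p = 0.659 and 1.00). Stc2, stanniocalcin 2, stood at 13.3 and 1.68 CPM (controls) against 1.81 and 0.935 CPM (knockouts), a gap that rests on control 1 (−2.45 ± 1.07). Hmox1, heme oxygenase 1, had 0.15 ± 0.19 and Anxa2, annexin A2, −0.16 ± 0.30.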

How the data were processed

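Per the labels' protocols, the libraries were strand-marked (dUTP) and made from poly(A) RNA for paired reads. The submitters' processing notes name cutadapt 1.9, HISAT2 2.0.4, StringTie 1.3.4d, edgeR and DESeq2. Build, use of strand in counting and treatment of reads with several matches are not given in the sources used here. An estimated count and an FPKM value were deposited for each of 55401 genes in each library, per the file headers. The estimated counts were whole numbers and not normalized, but 39.1% of counts from 1 to 24 were multiples of 4, so it is unknown how many fragments a count stands for. The deposited FPKM values, scaled by the authors for gene length and library size, were used for levels per length. Of the columns, 4 matched no sample and were not used. Of the 35 genes, 27 had the same start and end as in GENCODE M21 (GRCm38), and 94.2% of 55141 genes did. Coordinates of genes are those of the deposited table.

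The main test was edgeR's quasi-likelihood test (edgeR 4.0.16, R 4.3.3) with TMM scaling and filterByExpr, on the whole table, adjusted by Benjamini-Hochberg over the 17260 genes kept, which included all 35. Differences within a library number are log2 CPM with a prior count of 2. Near-identical copies were found with blastn 2.17.0 in GENCODE M21 transcripts (at least 95% identity over at least 300 bases). The scripts were tested on simulated counts. Alternatives used DESeq2 1.42.0 and limma 3.58.1 on log2(FPKM + 1) and log2(FPKM + 0.1), other scalings and filters, the library number as a block, and each library left out. The test of library number was planned, and its alternatives were chosen after seeing the data.

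The genes and the lists were chosen with earlier results of these data known, so no set test was made. Values in every library are given for Hif1a, for the 3 genes with the highest mean FPKM and for up to 12 genes with the same sign within both numbers, ranked by the smaller difference. Of each further list the text names genes called by the main test in either comparison, up to 3 with the same sign within both numbers and the 2 with the highest mean FPKM, and 1 result of these lists is not reported here.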

Additional observations from a re-analysis of the deposited data

Results flagged for a closer look

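In 3 of the 35 genes the genotype difference had opposite signs within the 2 library numbers and exceeded 0.3 (log2 CPM) in both, against 12.6% of all genes. Each pair is 1 library against 1, and the difference between the pairs was not tested. Ndrg1 differed by 1.02 within number 1 and by −0.34 within number 3. Slc2a3 differed by 0.75 within number 1 and by −0.41 within number 3, at levels of 2.13 to 3.71 CPM. Pfkfb3 differed by −0.36 within number 1 and by 0.62 within number 3.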

How the results depend on the processing

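No gene of the set was called between genotypes under any alternative run. Over all genes, 0 were called by edgeR and by limma, 74 by DESeq2 and 175 by DESeq2 with the replicate block, which also called Slc6a8 and Cxcr4 among the further lists. Same-numbered libraries deviated together (r = 0.42 over 17260 genes, which are not independent). They share a number and the sex chromosome pattern given above, but there are only 2 pairs and no label says what the number marks. With that block in edgeR, 0 genes were called, 929 (5.38% of all) had an unadjusted p under 0.05 against 391 without it, and 3 genes of the set did (Eno2, Vegfa and Gapdh). The block reversed fold changes near 0 in edgeR for Slc2a1 (0.078), Hk1 (0.0019), Pfkl (0.0080), Pfkfb3 (0.13), Aldoc (−0.11) and Egln1 (0.063), and in DESeq2 for Slc2a1 (0.082), Hk1 (0.0060), Pfkl (0.012), Pfkfb3 (0.13), Aldoc (−0.11) and Egln1 (0.067). The log2(FPKM + 1) scale reversed Slc2a1 (0.066), Pfkfb3 (0.11), Aldoc (−0.10) and Egln1 (0.0496), and log2(FPKM + 0.1) reversed Slc2a1 (0.069), Pfkm (−0.0041), Pfkfb3 (0.12), Aldoc (−0.12) and Egln1 (0.054). RLE scaling, library totals, other filters and added copies reversed none. The median of the set ran from −0.37 to 0.27 when 1 library was left out. The fold changes that reversed when a library was left out ran, from lowest to highest, as Slc2a1 −0.55 to 0.86, Slc2a3 −0.21 to 0.58, Slc16a3 −0.71 to 0.60, Hk1 −0.49 to 0.58, Gpi1 −0.48 to 0.23, Pfkp −0.54 to 0.32, Pfkl −0.28 to 0.33, Pfkfb3 −0.61 to 0.92, Pfkfb4 −0.066 to 0.45, Pgam1 −0.45 to 0.083, Ldha −0.15 to 0.061, Egln1 −0.49 to 0.68, Egln3 −1.60 to 1.22, Pdk1 −0.26 to 0.21, Mxi1 −1.03 to 0.30, Pfkm −0.41 to 0.38, Aldoc −0.998 to 0.63, Tpi1 −0.17 to 0.25, Pgk1 −0.14 to 0.27, Bnip3 −0.51 to 0.98, Bnip3l −0.18 to 0.23, Adm −1.67 to 2.37, Ankrd37 −0.82 to 1.55, P4ha2 −0.062 to 0.53, Hif1a −0.31 to 9.4e-05, Ndrg1 −0.96 to 1.46 and Eno1 −0.41 to 0.18.

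For library number 3 against 1, 122 genes and 2 of the set were called. DESeq2 called 1230 and 13, no filter on low counts 0 and 0, at least 10 counts in every library 468 and 7, and RLE scaling left 1 of the set. Leaving out a library gave 1 to 87 genes and 0 to 2 of the set, with the median of the set at −0.50 to −0.38. The differences that reversed there ran as Slc2a3 −0.15 to 0.61, Ldhb −0.33 to 0.29, Vegfa −0.51 to 0.10, Eno2 −0.084 to 1.21, Hif1a −0.10 to 0.27 and Pkm −0.43 to 0.11. Fewer genes are adjusted over with the stricter filter, and fewer libraries remain when 1 is left out. The part of either in these changes was not tested, nor were other causes.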

Other observations

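Several genes that overlap a gene of the set stand in the table with counts of their own, and it is unknown whether the authors counted by strand. Ufsp2, on the strand opposite to Ankrd37, had 2823 and 3308 counts in controls 1 and 3 and 3734 and 4599 in knockouts 1 and 3, against 971, 235, 1006 and 480 for Ankrd37 in the same order. Senp1, opposite to Pfkm, had 2111 and 2415 counts in the controls and 2363 and 3435 in the knockouts, against 1571, 1246, 1998 and 1448 for Pfkm. Spsb2, opposite to Tpi1, had 1492 and 1260 counts in the controls and 632 and 2314 in the knockouts, small beside the 26483 to 35335 counts of Tpi1. Before scaling for library size, Ufsp2 and Senp1 had more counts in the library numbered 3 of each genotype, where Ankrd37 and Pfkm had fewer. Library totals were also higher there, and scaled values of Ufsp2 and Senp1 were not compared.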
